A study of Rattus norvegicus with 9 samples.

Results

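Receptors that couple to G proteins for monoamines, acetylcholine, purines, histamine, prostaglandin E, somatostatin, opioids and other peptides were represented by 73 of the 4736 genes that the array annotation names singly. They were taken by symbol, as all genes of the alpha and beta adrenergic, dopamine, muscarinic, P2Y, histamine, somatostatin, opioid, galanin, neurotensin, tachykinin, prostaglandin E, angiotensin, vasopressin and VIP receptor series, the adenosine and G protein-coupled serotonin receptors, Adcyap1r1, Npy1r and Npy5r. Of the 73 genes, 72 encode receptors, and Oprpn, which the opioid prefix also takes in, encodes the opiorphin prepropeptide. The genes have 109 of the 8740 probe sets tested. A probe set is a group of array probes for 1 transcript. For 50 genes there was 1 probe set and for 23 several, with at most 4, and the brightest by its mean over the 9 arrays stands for the gene.

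The arrays (Affymetrix GeneChip for the rat) held total RNA from sympathetic neurons of the superior cervical ganglion of Holtzman rat pups at embryonic day 21, grown in serum-free medium with nerve growth factor at 100 ng/ml. All groups had been given Ara-C, which kills dividing cells, early in culture to deplete glia and other non-neuronal cells. On day 5, control cultures received medium only for 24 hr, BMP6h cultures were exposed for 6 hr to 50 ng/ml of bone morphogenetic protein-7 (BMP-7), and BMP24h cultures for 24 hr to the same dose. Each group has 3 arrays, each from pooled cells, and the cultures were prepared 3 times independently. Per the study's methods, RNA of all 3 groups was isolated at the same age of the cultures. Array 1 of each group was processed in batch 1 with 10 µg cRNA, and arrays 2 and 3 in batch 2 with 5 µg. The values are log2 expression values, and a difference of 1 or -1 corresponds to 2 times the level or its inverse. In RNA of whole cultures, fewer cells of a type and less RNA per cell cannot be told apart.

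BMP-7 makes cultured sympathetic neurons, which are noradrenergic, extend dendrites, the processes that receive synaptic input. The receptors described here sense transmitters and local mediators and signal through heterotrimeric G proteins. Those coupled to Gs raise cAMP, those coupled to Gi lower it and act on ion channels, and those coupled to Gq activate phospholipase C. Sympathetic neurons are known for alpha-2 adrenergic, muscarinic, NPY, PACAP and P2Y receptors on the soma and terminals, through which transmitter release and excitability are tuned.

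The question put to the arrays was which transcripts BMP-7 alters before and as dendrites form. No gene among the 73 passed an adjusted p (limma with the Benjamini-Hochberg method, threshold 0.05) in any comparison, and the lowest adjusted p was 0.887 for BMP6h against control, 0.264 for BMP24h against control and 0.852 for BMP24h against BMP6h. Over all probe sets the shares past it were 0.0458% (4 of 8740), 0.217% (19) and 0%. The number with an unadjusted p under 0.05 in limma was 2, 7 and 4 of the 73, and 151, 297 and 259 of all 8740 probe sets. The study's own gene lists used the raw p-value, with 0.05 as the limit, together with a change of 1.2-fold or more, and in the limma fit 7 genes met both in at least 1 comparison: Htr1d, P2ry2, Sstr2, Oprl1, Adora2a, Npy1r and Htr2b. "Called" below means past both of these thresholds.

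At 6 hr, 2 genes were called higher and 0 lower, where 0.881% and 0.847% of all probe sets were called. At 24 hr, 3 were called higher and 3 lower, where the shares over all probe sets were 1.60% and 1.74%. BMP24h against BMP6h gave 2 higher and 2 lower, beside 1.40% and 1.52%. A p under 0.005 in the limma F-test across the 3 conditions was reached by 1 of the 73, Sstr2, and by 0.824% of all probe sets. The study's published list for this limit, from its own analysis of variance, holds Adora2a and Drd2, both as downregulated. For these 2 the limma F-test gave unadjusted p-values of 0.0107 and 0.117. With at most 3 genes in any count, nothing is read from these shares about the receptors as a group. The median difference of the 73 genes was 0.00 at 6 hr, 0.00 at 24 hr and -0.02 between the BMP times, beside -0.02, 0.01 and 0.03 over all probe sets. At 24 hr 36 of the 73 genes had a higher value than in control and 37 a lower one.

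**Figure D1:**
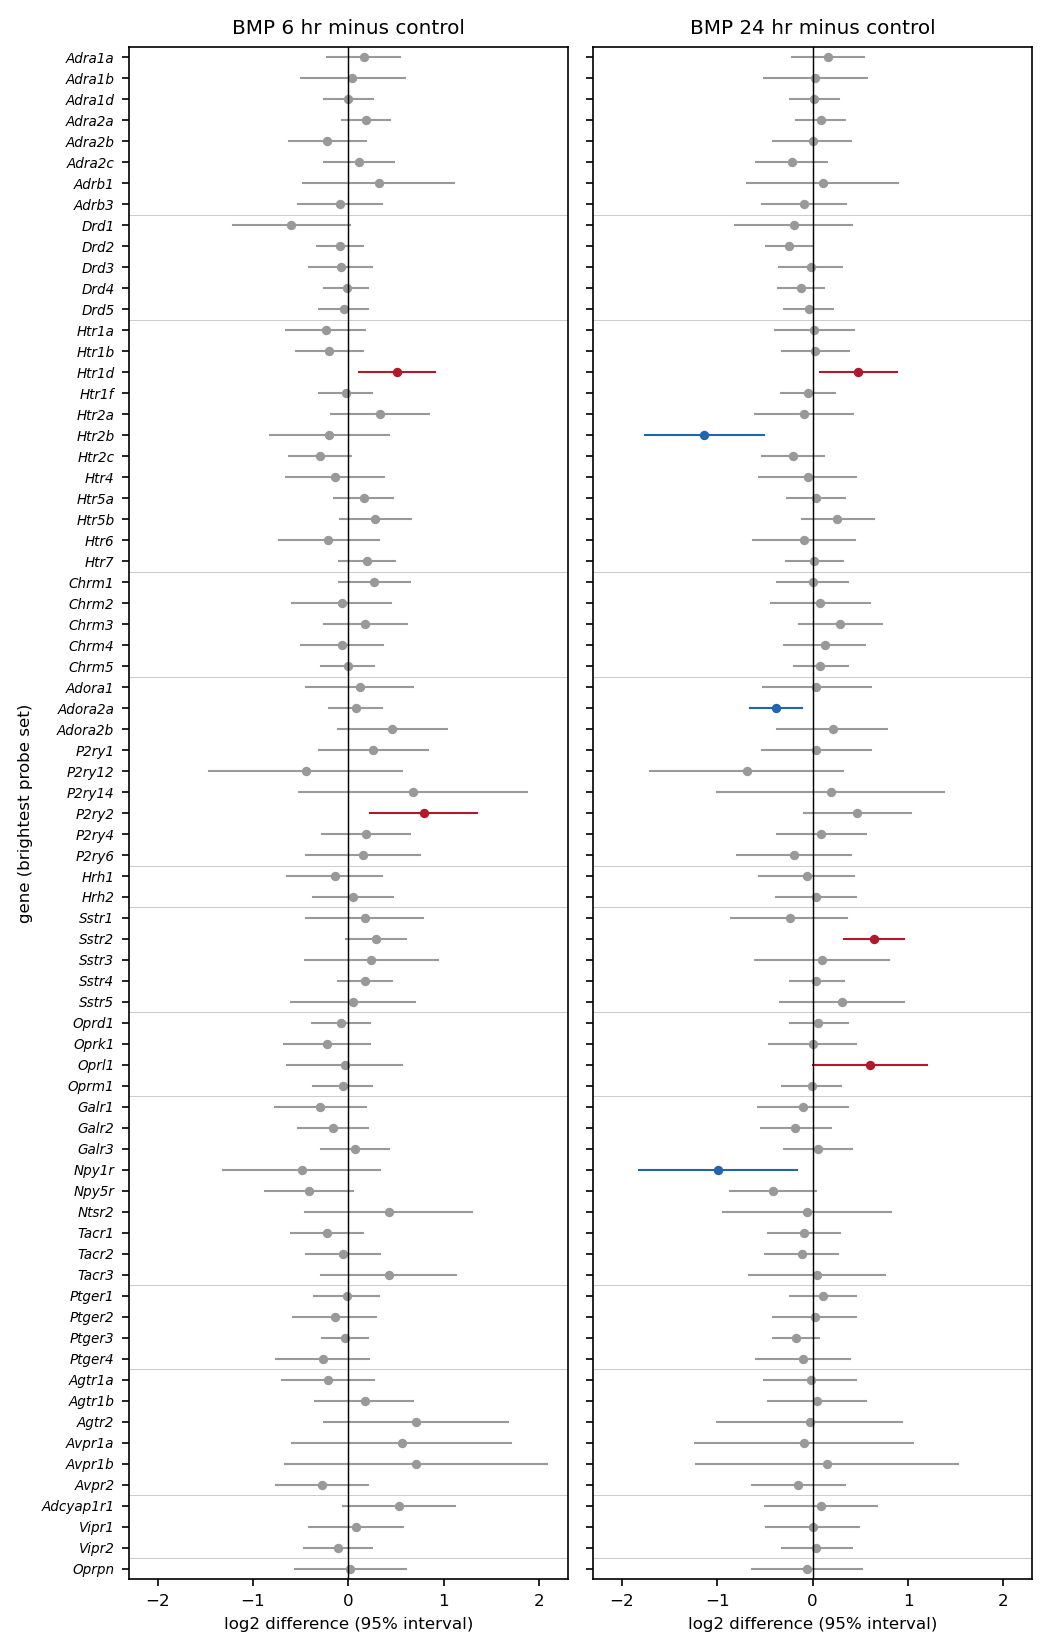
Log2 difference of each of the 73 genes (brightest probe set, rows grouped by receptor family) for BMP6h minus control and BMP24h minus control, with 95% intervals from limma. Red marks genes called higher and blue genes called lower, 2 at 6 hr and 6 at 24 hr, while most intervals span 0.

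For the genes called, the promoter letters are shown for 3 that have an entry in the RefSeq promoter table (build GRCr8): the somatostatin receptor gene with the lowest p, and the 2 genes with the lowest differences at 24 hr. Each is the 250 bases before the annotated start, 5′ to 3′ on the gene's strand. Capitals mark matches on either strand to the full cAMP response element TGACGTCA, its shorter form TGACG, the E-box CANNTG or the GC-rich Smad element GGCGCC. The shorter form lies within the full element.
Sstr2 (chr10:99163103-99163352, plus strand, 66.4% GC)
Sstr2: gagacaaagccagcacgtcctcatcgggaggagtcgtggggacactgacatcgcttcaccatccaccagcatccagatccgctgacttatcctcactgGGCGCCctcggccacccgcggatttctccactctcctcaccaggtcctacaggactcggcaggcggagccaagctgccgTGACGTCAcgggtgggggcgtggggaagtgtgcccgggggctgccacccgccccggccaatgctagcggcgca
Htr2b (chr9:94204088-94204337, minus strand, 39.6% GC)
Htr2b: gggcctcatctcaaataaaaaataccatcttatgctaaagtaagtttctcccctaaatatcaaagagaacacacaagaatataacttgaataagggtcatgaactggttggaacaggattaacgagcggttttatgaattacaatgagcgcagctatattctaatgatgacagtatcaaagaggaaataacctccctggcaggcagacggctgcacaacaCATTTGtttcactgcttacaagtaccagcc
Npy1r (chr16:27813388-27813637, minus strand, 51.6% GC)
Npy1r: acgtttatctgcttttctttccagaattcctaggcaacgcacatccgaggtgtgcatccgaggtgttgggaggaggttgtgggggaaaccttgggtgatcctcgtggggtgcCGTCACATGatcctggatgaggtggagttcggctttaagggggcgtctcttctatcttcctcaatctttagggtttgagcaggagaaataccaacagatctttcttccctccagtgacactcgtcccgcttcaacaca
Counting back from the start, the Sstr2 window holds GGCGCC at -152 and the full cAMP response element at -73. The Htr2b window holds only an E-box, at -30, and in the Npy1r window the shorter form at -138 and an E-box at -135 overlap. Of all 27456 windows of this length, 1.70% hold the full element, 19.0% the shorter form, 65.2% an E-box and 9.24% the GC-rich element. Among the 60 of the 73 genes with an entry, 1 (1.67%), 15 (25.0%), 33 (55.0%) and 12 (20.0%) hold them. Such matches are letters in a window and no evidence of binding. Adora2a and Oprl1 have no entry.

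Sstr2, a Gi-coupled receptor for somatostatin, had the lowest p of the 73 genes. Its values in the control arrays 1, 2 and 3 were 5.30, 5.18 and 5.25, in BMP6h 5.40, 5.44 and 5.75, and in BMP24h 5.96, 5.80 and 5.90. Every BMP6h array lay above the control arrays, every BMP24h array above all BMP6h arrays, and no groups overlapped. The BMP24h difference from control was 0.64 (SE 0.13, 95% interval 0.33 to 0.96, unadjusted p = 0.00157 and adjusted p = 0.264 in limma), and it was 0.66 within batch 1 and 0.63 within batch 2. The call at 24 hr was kept when each array was left out in turn, with differences of 0.59 to 0.69. At 6 hr the difference of 0.29 had an unadjusted p of 0.0684 in limma and was not called, although without BMP6h array 2 it was called (0.33). BMP24h exceeded BMP6h by 0.36 (unadjusted p = 0.0301 in limma), a call lost without control array 1 (0.36), BMP6h array 1 (0.26) or 2 (0.31), or BMP24h array 1 (0.30) or 3 (0.35). The F-test gave an unadjusted p of 0.00498 and an adjusted p of 0.603 in limma. The probe set is among the dimmest 25% of the array, as is that of P2ry2.

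Of the other somatostatin receptor genes, Sstr3, Sstr4 and Sstr5 differed from control by 0.10, 0.04 and 0.31 at 24 hr, none called. Sstr1 had -0.24 on its brightest probe set and a lower value than control on all 3 of its probe sets. The dimmest of them was called lower at 24 hr: it read 5.56, 5.83 and 6.05 in control, 5.77, 5.36 and 5.31 in BMP6h and 5.06, 4.91 and 5.31 in BMP24h, a difference of -0.72 (unadjusted p = 0.0066 in limma). On that probe set the BMP24h arrays lay below all control arrays, whereas on the brightest the BMP24h array 3, at 7.06, was above every control array.

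Oprl1 encodes the Gi-coupled receptor for nociceptin. It measured 6.18, 6.19 and 6.51 in control, 6.40, 5.66 and 6.70 in BMP6h and 6.86, 6.83 and 6.98 in BMP24h. The BMP24h arrays had an SD of 0.08 and lay above every other array, while the BMP6h arrays spread on both sides of control. At 24 hr Oprl1 differed from control by 0.60 (SE 0.26, unadjusted p = 0.0499 and adjusted p = 1 in limma), and from BMP6h by 0.64 (unadjusted p = 0.0397). The call against control was lost without control array 1 (0.51) or 2 (0.54), BMP6h array 1 (0.60) or BMP24h array 1 (0.62), 2 (0.63) or 3 (0.55). It was also lost under 5 of the 12 other settings. Among them was a two-way analysis of variance without moderated variance, rerun here on the deposited values (unadjusted p = 0.0978, against 0.0499 in limma). The others were batch 2 alone (0.56), repeated quantile normalization (0.60), median centring (0.59) and an intensity trend (0.60). Against BMP6h the call was kept only without control array 3 or BMP6h array 3 among the arrays left out, and the difference was 0.31 without BMP6h array 2. That call was lost in the same rerun analysis of variance, in batch 2 alone (0.73) and with only the 2 groups compared (0.64). The classical opioid receptor genes Oprm1, Oprd1 and Oprk1 differed by -0.01, 0.06 and 0.00 at 24 hr.

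Pnoc, which encodes the precursor of nociceptin, was the 1 of 22 measured ligand genes called higher at 24 hr. It measured 10.18, 9.92 and 10.13 in control, 10.24, 10.12 and 10.47 in BMP6h and 10.41, 10.34 and 10.67 in BMP24h. The BMP24h arrays were above the control arrays, and BMP6h overlapped both. The difference at 24 hr was 0.40 (SE 0.15, unadjusted p = 0.0323 and adjusted p = 1 in limma). The values of Pnoc and Oprl1 come from the same arrays and share the control arrays.

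Htr1d, a Gi-coupled serotonin receptor gene, was the 1 gene of the 73 called at both BMP times. Control values were 6.56, 7.08 and 6.85, BMP6h 7.43, 7.32 and 7.27, and BMP24h 7.49, 7.33 and 7.11. All BMP arrays were above all control arrays, although the lowest BMP24h array exceeded the highest control array by little. The differences were 0.51 (SE 0.17, unadjusted p = 0.0182 and adjusted p = 0.887 in limma) at 6 hr and 0.48 (unadjusted p = 0.0235, adjusted p = 1) at 24 hr. Between the BMP times it differed by -0.03, with an interval of -0.43 to 0.37. Control array 1, the lowest, set much of the size: without it the differences were 0.31 and 0.28 and neither was called. Within batch 1 they were 0.87 and 0.94 and within batch 2 0.33 and 0.26. The 6 hr call was also lost without BMP6h array 1 (0.45), and the 24 hr call without BMP24h array 1 (0.34) or 2 (0.47).

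Htr2b, a Gq-coupled serotonin receptor gene, had the lowest difference of the 73 genes at 24 hr. Its control arrays read 7.40, 7.45 and 7.58, BMP6h 7.39, 6.88 and 7.58, and BMP24h 6.31, 6.83 and 5.89. The BMP24h arrays were all below the other 6, and the BMP6h arrays overlapped control. The 24 hr difference was -1.14 (SE 0.27, 95% interval -1.76 to -0.51, unadjusted p = 0.00328 and adjusted p = 0.367 in limma), with -1.10 within batch 1 and -1.16 within batch 2. It stayed called when each array was left out in turn, with differences between -1.40 and -0.89. From 6 to 24 hr it was lower by a log2 difference of -0.94 (unadjusted p = 0.00895 in limma), a call also kept without each array.

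The list of fibroblast and matrix markers had lower values alongside Htr2b, Npy1r and Adora2a at 24 hr: 11 of its 14 measured genes had a lower value than in control, and Dcn, Lum, Mgp and Vim were called lower, by -0.73, -0.65, -0.48 and -0.38. Over all probe sets, 4210 of 8740 had a lower value than in control and 1.74% were called lower. The mean level of the list was 9.64 to 9.89 in the control arrays, 9.70 to 9.77 in BMP6h and 9.38 to 9.57 in BMP24h. Its part in the lower receptor values was not tested. The neuron list (12 genes) was at 11.20 to 11.23 in control and 10.96 to 11.36 in BMP24h, and Th, tyrosine hydroxylase of catecholamine synthesis, lay between 13.33 and 13.51 on all arrays. Means of the glial list (11 genes) were 7.45 to 7.54 in control and 7.43 to 7.60 in BMP24h. For the endothelial and mural list (9 genes) they were 7.03 to 7.26 and 6.88 to 7.02, and for the macrophage and blood list (9 genes) 6.85 to 6.89 and 6.82 to 6.87. In the neuron list and in the endothelial and mural list 1 gene each was called lower at 24 hr. No gene of the marker lists was called higher then.

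The other 10 of the 12 serotonin receptor genes differed from control by between -0.21 and 0.26 at 24 hr, and none of them was called at either time. At that time Htr5b (0.26) had the highest and Htr2c (-0.21) the lowest value of them. The 12 genes split evenly at 24 hr, with 6 higher and 6 lower, and the median was -0.01.

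Npy1r encodes a Gi-coupled receptor for neuropeptide Y, a peptide that sympathetic neurons release with noradrenaline. It read 7.03, 6.78 and 7.61 in control, 6.96, 6.07 and 6.89 in BMP6h and 5.94, 5.79 and 6.71 in BMP24h. BMP24h array 3 came close to the lowest control array. The control and BMP24h arrays did not overlap, while BMP6h overlapped both. The 24 hr difference was -0.99 (SE 0.36, 95% interval -1.82 to -0.16, unadjusted p = 0.0251 and adjusted p = 1 in limma). The call was lost without control array 3 (-0.73), BMP24h array 1 (-0.83) or BMP24h array 2 (-0.79), and in batch 2 alone (-0.94). It was also lost in the two-way analysis of variance without moderated variance rerun here (unadjusted p = 0.0671, against 0.0251 in limma). Npy5r, another NPY receptor gene, differed by -0.41 at 6 hr and -0.42 at 24 hr, not called, with all BMP arrays at or below 4.35 and the control arrays at 4.44, 4.39 and 4.96. Npy itself had a difference of 0.24 at 24 hr (95% interval -0.03 to 0.51), opposite in sign to both receptor genes.

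In the galanin, neurotensin, tachykinin and NPY group, 7 of 9 genes had a lower value than in control at 24 hr. Galr1, Galr2 and Galr3, for galanin, differed by -0.10, -0.18 and 0.06, and the ligand gene Gal by -0.46 with an interval of -1.37 to 0.46. The tachykinin receptor genes Tacr1, Tacr2 and Tacr3 were within -0.11 to 0.05.

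**Figure D2:**
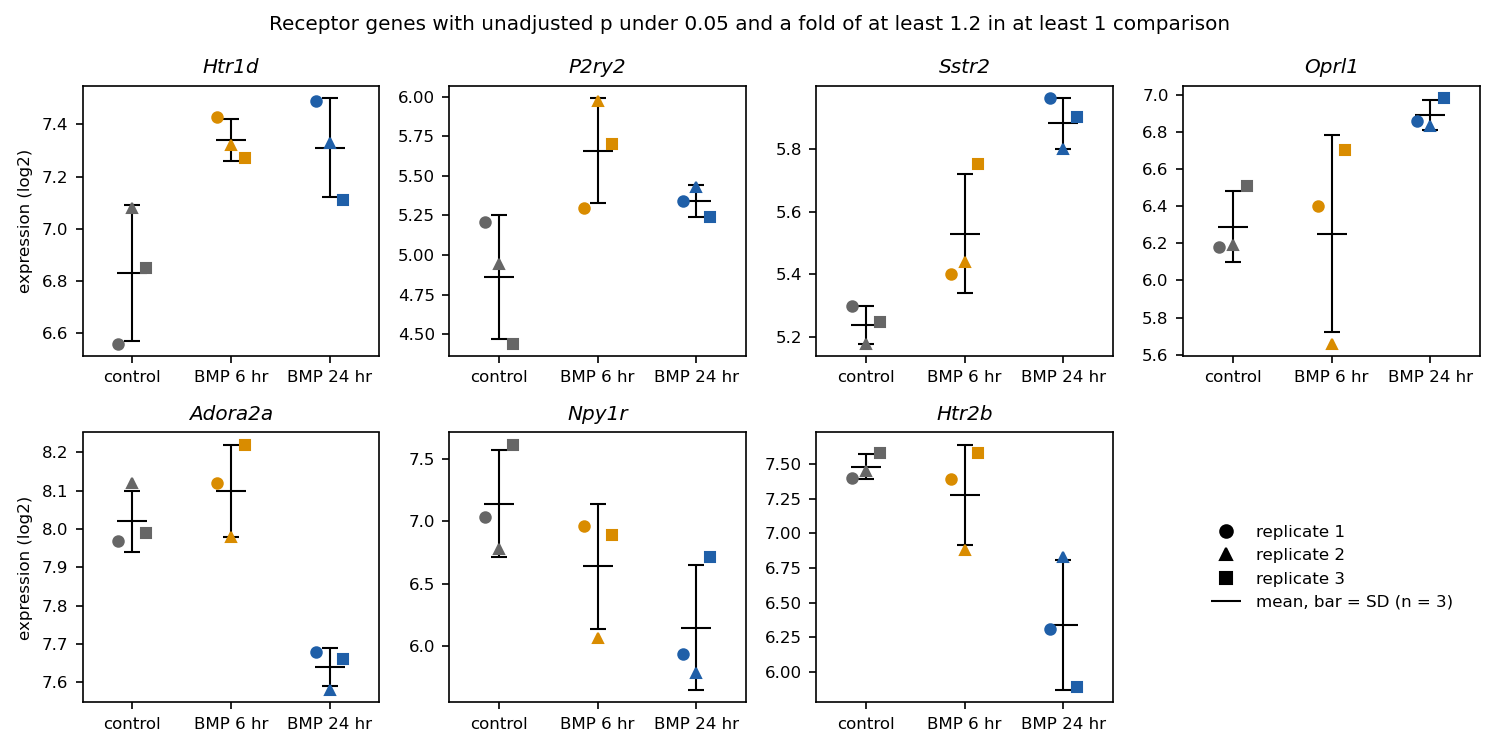
Log2 expression of the 7 genes called in at least 1 comparison on each array (circle, triangle and square for replicates 1, 2 and 3), with group mean and SD, n = 3. Sstr2 rises in level from control through BMP6h to BMP24h, and the BMP24h arrays lie below all others for Htr2b and Adora2a and above all others for Oprl1.

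Adora2a, a Gs-coupled adenosine receptor gene, measured 7.97, 8.12 and 7.99 in control, 8.12, 7.98 and 8.22 in BMP6h and 7.68, 7.58 and 7.66 in BMP24h. The first 2 groups overlapped and the BMP24h arrays lay below both. At 24 hr it differed from control by -0.38 (SE 0.12, unadjusted p = 0.0128 and adjusted p = 0.786 in limma) and from BMP6h by -0.46 (unadjusted p = 0.00497, adjusted p = 0.852). The latter call was kept without each array in turn. Against control it was lost without control array 2 (-0.33). The other adenosine receptor genes, Adora1 and Adora2b, differed by 0.04 and 0.21 at 24 hr.

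P2ry2 encodes a Gq-coupled receptor for ATP and UTP. Values were 5.21, 4.94 and 4.44 in control, 5.30, 5.97 and 5.70 in BMP6h and 5.34, 5.43 and 5.24 in BMP24h. All BMP arrays were above all control arrays, with control array 1 near the BMP24h level. The 6 hr difference of 0.79 (SE 0.24, 95% interval 0.23 to 1.35, unadjusted p = 0.0116 and adjusted p = 0.887 in limma) was 0.09 within batch 1 and 1.15 within batch 2. It was called without each array in turn, at 0.56 to 1.06. At 24 hr it was 0.47, not called. Of the 9 adenosine and P2Y genes, 8 had a higher value than in control at 6 hr, 6 at 24 hr, and all 9 were lower at 24 hr than at 6 hr. This pattern includes BMP6h array 2, which was the highest of its group for P2ry1, P2ry2, P2ry4, P2ry12, P2ry14, Adora1 and Adora2b.

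For Adcyap1r1, the Gs-coupled PACAP receptor gene, control arrays read 6.28, 6.37 and 6.39, BMP6h 6.91, 7.23 and 6.49, and BMP24h 6.46, 6.00 and 6.84. Every BMP6h array exceeded the control arrays, and BMP24h spanned them. The differences of 0.53 at 6 hr (95% interval -0.06 to 1.12) and 0.09 at 24 hr were not called. Its other 2 probe sets, also not called, disagreed with each other: the differences were 0.47 and 0.39 on 1 and -0.23 and -0.14 on the other. Its ligand gene Adcyap1, the PACAP precursor, was at 8.73, 8.68 and 8.74 in control, 8.65, 8.89 and 8.44 in BMP6h and 7.77, 7.54 and 8.01 in BMP24h. The 3 BMP24h arrays were below all others, a difference from control of -0.95 (SE 0.17, unadjusted p = 0.000598 and adjusted p = 0.141 in limma). Vipr1 and Vipr2, the VIP receptor genes, differed by 0.00 and 0.04 at 24 hr.

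Among the adrenergic receptor genes no call was made. Adra2a, the alpha-2 autoreceptor gene, read 9.38, 9.25 and 9.44 in control, 9.56, 9.54 and 9.51 in BMP6h and 9.40, 9.50 and 9.43 in BMP24h. The BMP6h arrays were above control, by a mean of 0.18, and BMP24h overlapped it at 0.09. The 8 adrenergic genes lay between -0.22 and 0.32 at 6 hr and between -0.22 and 0.16 at 24 hr.

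On their brightest probe sets the 5 dopamine receptor genes had a lower value than in control at both times, by -0.60 to -0.02 at 6 hr and by -0.25 to -0.02 at 24 hr. The other probe set of Drd3 went the other way, by 0.35 and 0.16, where the brightest had -0.08 and -0.02. Drd2, a Gi-coupled dopamine receptor gene picked after its values were seen, is the seventh gene with an unadjusted p under 0.05 at 24 hr. Its control values were 7.18, 7.27 and 7.15 and its BMP24h values 6.97, 6.97 and 6.92. These groups did not overlap, but the difference of -0.25 (unadjusted p = 0.0469 and adjusted p = 1 in limma) corresponds to a fold of 1.19, below the 1.2 required. Drd1, also picked after its values were seen, had -0.60 at 6 hr with an interval of -1.21 to 0.02. Control array 3 (6.90) was high and BMP6h array 2 (5.42) low for it.

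None of the muscarinic receptor genes, which receive the acetylcholine of preganglionic fibers, was called. Their 24 hr differences on the brightest probe sets ran from 0.00 for Chrm1 to 0.29 for Chrm3. Other probe sets had -0.26 for Chrm1 and 0.46 for Chrm2. Prostaglandin E receptor genes ranged from -0.17 (Ptger3) to 0.11 (Ptger1) at 24 hr. Hrh1 and Hrh2, for histamine, had -0.06 and 0.04. The angiotensin and vasopressin receptor genes were within -0.15 to 0.15 at 24 hr on their brightest probe sets. Other probe sets reached 0.42 for Agtr1a and -0.33 for Agtr2. Agtr1a and Agtr1b are near-identical paralogs whose probes may read both transcripts, so their values are uncertain as separate genes.

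The plot of each array against the control mean shows that 1 array, BMP6h array 2, carried much of the spread. Over all probe sets, 9.99% lay over 1 away from the rest of their group on this array, against 0.0229% to 4.21% on the other 8. Of the 73 genes, 9 were that far off and all 9 read high: Avpr1b, Avpr1a, P2ry14, Agtr2, Ntsr2, Adrb1, P2ry12, Tacr3 and Sstr3. Avpr1b, a vasopressin receptor gene, was at 7.42 on this array beside a mean of 5.22 on the other BMP6h arrays, and its 6 hr difference went from 0.71 to -0.09 without the array. Likewise Agtr2, an angiotensin receptor gene, went from 0.71 to 0.16 on its brightest probe set, and Avpr1a from 0.56 to -0.10. The other probe set of Agtr2 read low on this array, at 4.01 beside 4.74 and 4.93, and its 6 hr difference was -0.43. This array held the highest of the 9 values for 22 of the 73 genes and the lowest for 23. The median SD of the 73 genes was 0.24 in BMP6h, 0.13 in control and 0.15 in BMP24h.

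**Figure D3:**
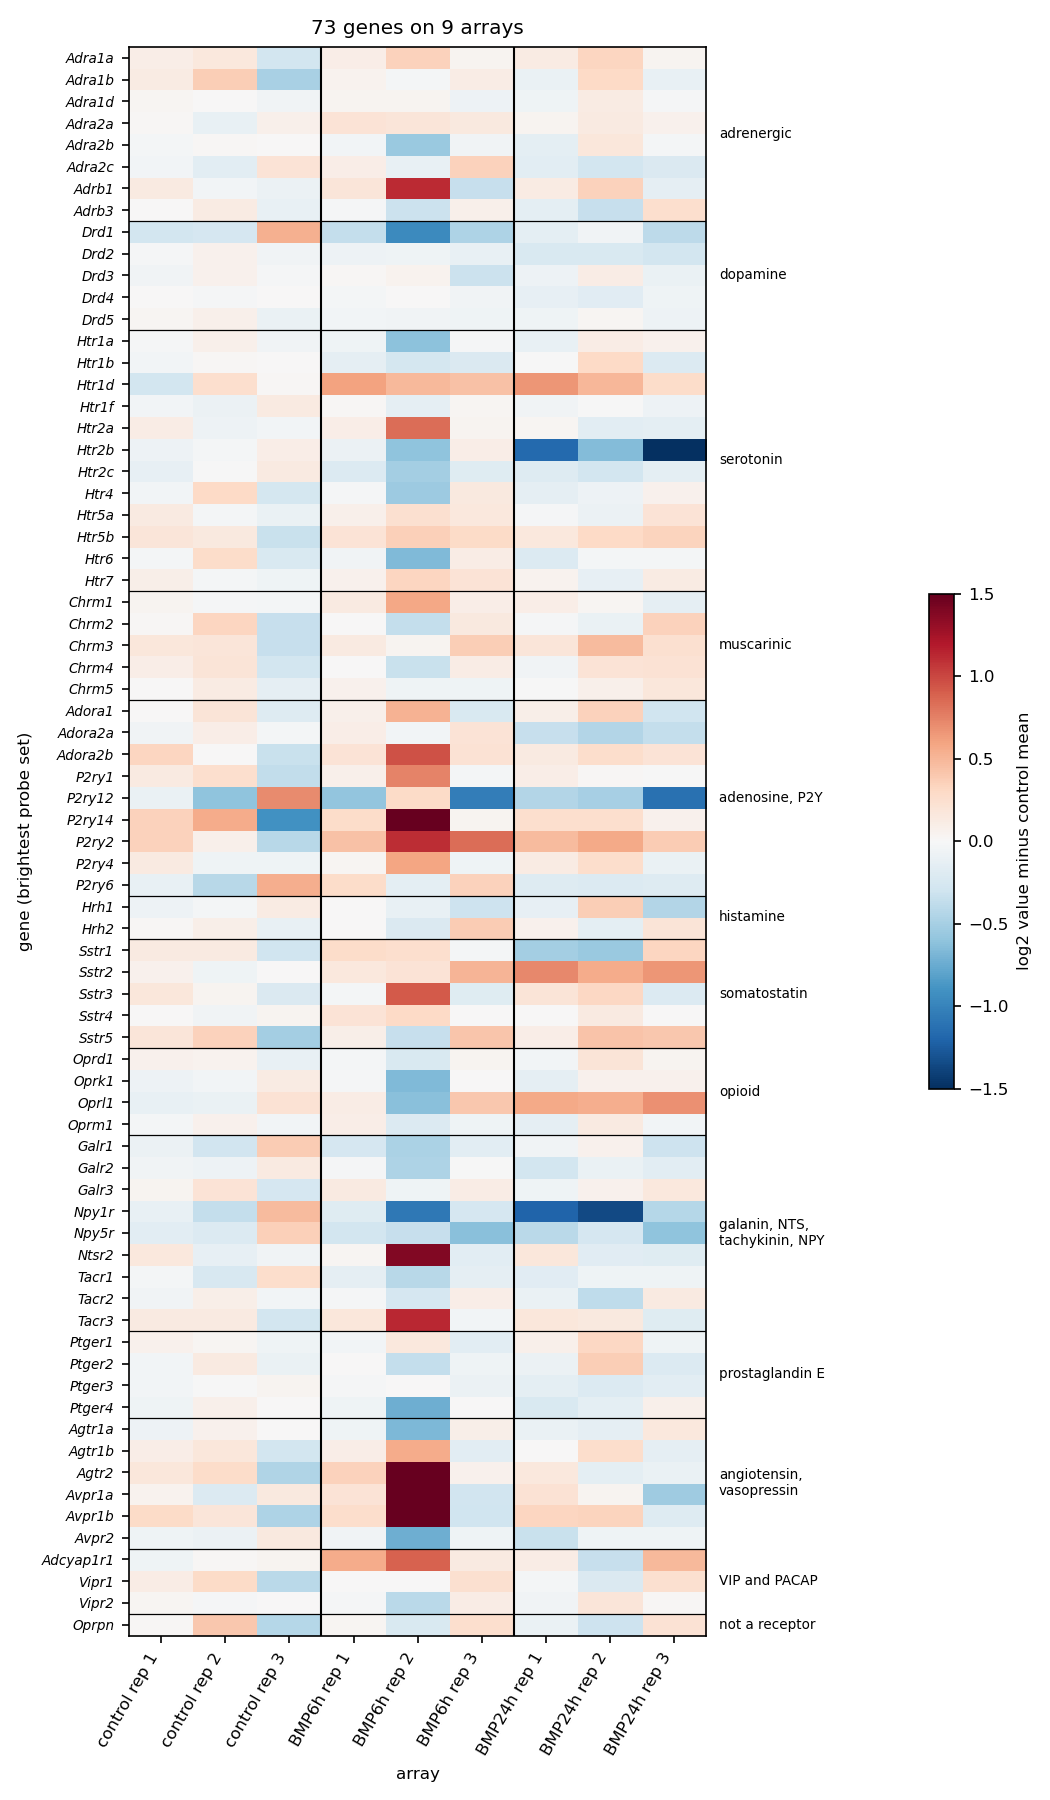
Log2 value minus the control mean for the 73 genes (rows, by receptor family) on the 9 arrays (columns), on a scale of -1.5 to 1.5, with values beyond it drawn in the end colors. BMP6h replicate 2 has the strongest colors, with 9 genes more than 1 above the other BMP6h arrays, while Htr2b and Npy1r are blue in BMP24h.

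For the 23 genes with several probe sets, the signs differed between them in 16 genes at 6 hr, 8 at 24 hr and 12 between the BMP times. Only in Sstr1 at 24 hr was any of those probe sets called, and there all 3 had the same sign. Each of the 7 called genes rests on 1 probe set.

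**Figure D4:**
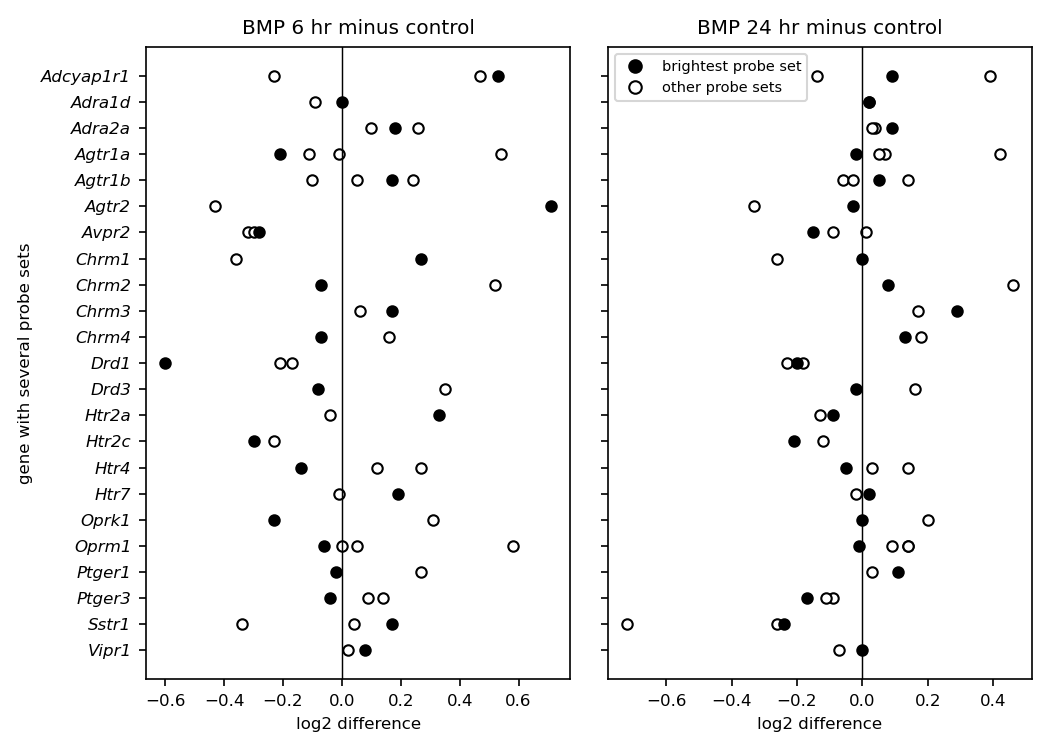
Log2 differences of every probe set of the 23 genes with several, at 6 hr and at 24 hr against control. Filled points are the brightest probe set and open points the others, which fall on both sides of 0 for 16 genes at 6 hr and 8 at 24 hr.

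By coupling, the 16 Gs receptor genes had a median difference of -0.02 at 24 hr, with 0 called higher and 1 lower. For the 31 Gi genes it was 0.03, with 3 higher and 1 lower, and for the 24 Gq genes 0.01, with 0 and 1. Over all probe sets, 1.60% were called higher and 1.74% lower at 24 hr. With so few genes called, the counts are too small to compare the classes. Agtr2 was placed in no class.

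Genes of the ligands and of the signal path behind the receptors were counted beside them. Of 22 measured ligand genes, 0 were called at 6 hr, and at 24 hr 1 was higher (Pnoc) and 2 lower (Adcyap1 and Ddc). Ddc, the decarboxylase of monoamine synthesis, read 10.76, 10.91 and 10.75 in control and 10.36, 10.21 and 10.51 in BMP24h, a difference of -0.45 (unadjusted p = 0.0076 and adjusted p = 0.632 in limma). Of 33 measured transducer and desensitization genes, 0 were called at 6 hr, and at 24 hr 1 was higher and 3 lower. Over all probe sets, 0.881% were called higher and 0.847% lower at 6 hr, and 1.60% and 1.74% at 24 hr. With so few genes called, nothing is read from these counts about either list as a group.

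Plcb1 and Plcb3, phospholipases C that Gq activates, differed from control in opposite directions at 24 hr. Plcb1 was at 8.73, 8.70 and 8.70 in control, 8.70, 8.76 and 8.68 in BMP6h and 7.75, 7.53 and 7.98 in BMP24h. The 24 hr difference of -0.96 had an SE of 0.14 and an adjusted p of 0.0604 in limma, the lowest of these lists. Plcb3 was at 7.31, 7.48 and 7.65 in control and 8.57, 8.70 and 8.08 in BMP24h, a difference of 0.97 (SE 0.19, adjusted p = 0.215 in limma). Neither gene's control and BMP24h arrays overlapped. Rgs4, which speeds the turn-off of Gi and Gq, differed by -1.38 (SE 0.30, adjusted p = 0.294 in limma) and Pde4b, a phosphodiesterase that breaks down cAMP, by -0.70 (SE 0.18, adjusted p = 0.474).

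**Figure D5:**
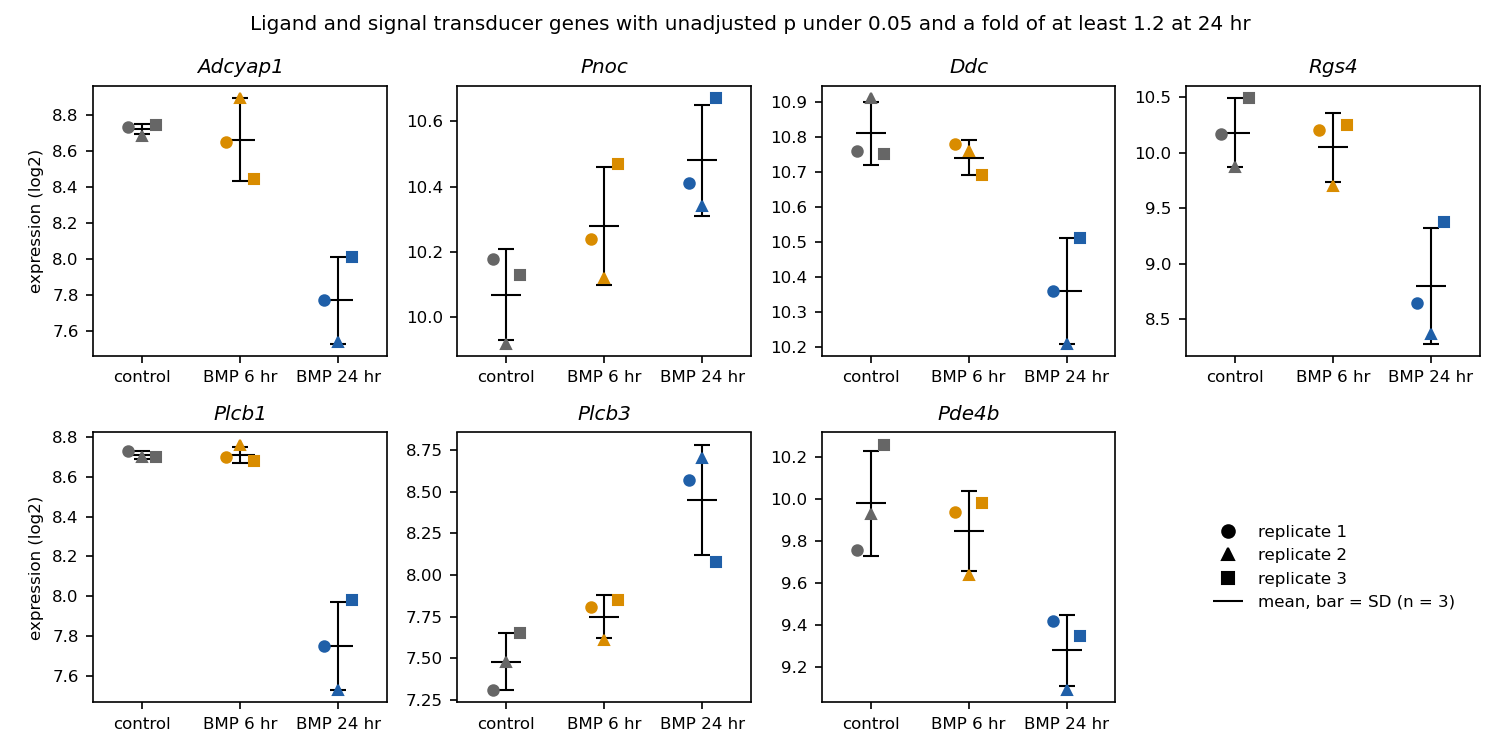
Log2 expression on each array for the 3 ligand genes and 4 transducer genes called at 24 hr (circle, triangle and square for replicates 1, 2 and 3), with group mean and SD, n = 3. The BMP24h arrays lie above the control arrays for Pnoc and Plcb3 and below them for the others. The genes were picked for a call on these same arrays, so this separation adds no support to the calls.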

How the data were processed

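RNA of cultured rat sympathetic neurons was hybridized to 9 arrays, 3 each for control, BMP6h and BMP24h. The authors deposited log2 values, computed by RMA in Partek Genomics Suite and adjusted to remove the batch difference. In these values no probe set's batch means differ by more than 6.7e-05. Batch removal before testing leaves fewer free values than arrays, so batch was also a term in the fit.

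Of 8799 probe sets, 59 controls were left out. Of the rest, 7006 name 1 gene, 308 several and 1426 none here. A further 4 probe sets, 3 for Adora3 and 1 for Avpr1b, carry the symbol under several gene records and were left out of the 73 genes. The fit (limma 3.58.1 on R 4.3.3, lmFit and eBayes, two-sided tests) had condition and batch as terms with 5 residual degrees of freedom, and p-values were adjusted by Benjamini-Hochberg over all 8740 probe sets. The limits of the study's methods were used as well: a raw p-value below 0.05 with a change of 1.2-fold or more, and below 0.005 for the F-test. Genes past them were named with values, and the others by family. The script was tested on simulated data. The number of arrays limits the precision.

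The genes, gene lists and tests were chosen with earlier results of these data known. The settings varied were an unmoderated two-way analysis of variance, no batch term, a replicate block, each batch alone, dim probe sets removed, repeated quantile normalization, median centring, 2 groups per fit, an intensity trend, array weights, the mean over probe sets and leaving out each array.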

Additional observations from a re-analysis of the deposited data

How the results depend on the processing

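For the 7 called genes, no difference changed direction under any alternative in a comparison where the gene was called. Among genes not called, Avpr1b, Avpr1a, Adrb1 (0.32 to -0.12), Ntsr2 (0.42 to -0.11) and Sstr3 (0.24 to -0.13) were among those that did so at 6 hr without BMP6h array 2. The call for Htr2b and for Sstr2 at 24 hr held under each alternative that kept the gene and gave a test. Batch 1, with 1 array per group, gave no test. With dim probe sets removed, 50 of the 73 genes were left, without Sstr2 and P2ry2. At 6 hr the 2 genes called became 5 without a batch term, 5 with the replicate block and 8 with array weights. At 24 hr 6 became 3 within batch 2 alone (Htr2b, Sstr2 and P2ry2). They became 4 in the unmoderated two-way analysis of variance rerun here, where Npy1r and Oprl1 were not called. For BMP24h against BMP6h 4 became 0 within batch 2 alone, 2 with only the 2 groups compared and 8 with array weights. Array weights, which ran from 0.093 (BMP6h array 2) to 5.764 (BMP24h array 1), also brought 6 genes past the adjusted p at 24 hr (Adora2a, Htr1d, Htr2b, Npy1r, Oprl1 and Sstr2) and 3 between the BMP times (Adora2a, Htr2b and Npy1r), where 0 passed without weights. The median over the genes was -0.07 at 24 hr and -0.06 between the BMP times within batch 1 alone, -0.07 at 24 hr with array weights, and 0.05 at 6 hr with the mean over probe sets. The cause was not tested. For the alternative settings the shares of all probe sets past the limits are not given, so nothing is read from these counts about the receptors.

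Leaving out each array in turn gave 2 to 6 genes at 6 hr (6 without BMP6h array 3), 3 to 6 at 24 hr (3 without BMP24h array 1 or 2) and 2 to 8 between the BMP times (2 without control array 1 or BMP24h array 1, 8 without BMP6h array 3), with 0 past the adjusted p throughout. The 6 hr median ran from -0.06 to 0.03. Deviations of same-numbered arrays from their group means had correlations of -0.74 to 0.53, with 2 of 9 over 0.1. Batch removal makes the deviations of the arrays numbered 1 sum to about 0, so these correlations cannot show whether the numbers mark pairs. The replicate numbers were not taken as pairs. The methods state that each experiment used 1 dissection, but not that the number marks it. With the replicate block 6 genes were called at 24 hr and 6 between the BMP times, and Npy1r, whose unadjusted p at 24 hr was 0.0011 with the block, was also called lower at 6 hr and between the BMP times. The values hold no background signal, so how far the 23 of the 73 genes among the dimmest 25% of probe sets were above background was not measured.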
